A study of Rattus norvegicus with 6 samples.

Results

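A set of 10 p53 target genes was examined in liver from 6 rats, of which 3 received nitrilotriacetic acid trisodium monohydrate (NTA, a metal chelator) and 3 received vehicle. The genes were Cdkn1a, Btg2, Ccng1, Mdm2, Phlda3, Bax, Bbc3, Fas, Tp53inp1 and Gdf15. Their probes were all those whose RefSeq accession maps to one of these symbols, which gave 18 of the 61657 non-control probes on the array and 10 of the 15284 genes it names here. The genes were listed with earlier results of these data known, and no measured value entered the rule.

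The animals were male Sprague-Dawley (Crl:CD(SD)) rats bought at 5 weeks of age, and total liver RNA was hybridised to one-colour Agilent arrays, 1 array per rat. NTA was given at 1000 mg/kg/day. The labels name the vehicle as purified water in one place and corn oil in another, and for the duration they hold both 28 days (design text) and 9 weeks (protocol). Neither point was settled here. Whole liver was used, so fewer cells of a type and less RNA per cell cannot be told apart.

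The transcription factor p53 accumulates when DNA damage or other stress frees it from its ubiquitin ligase Mdm2, and it then switches on genes for cell cycle arrest, repair and cell death. Cdkn1a, which encodes the cyclin-dependent kinase inhibitor p21, is the classic arrest gene of this set, and in rat liver it also responds to signals other than p53. Several of the 10 genes, among them Cdkn1a, Ccng1, Mdm2 and Btg2, are widely used in rat liver as readouts of genotoxic stress.

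RefSeq start regions of build GRCr8 were given for 7 of the 10 genes, in 8 windows that each run from 250 bases before a gene's start to 50 after it. Those of Cdkn1a (chr20:7150682-7150981, plus strand) and Ccng1 (chr10:25684827-25685126, minus strand) are printed because they are the 2 windows that hold a match to the full p53 consensus, a 20-base motif of 2 half-sites with no spacer, here with 1 mismatch allowed. The motif reads the same on both strands, and the match is in capitals. It begins 201 bases before the start of Cdkn1a and 242 bases before that of Ccng1, with 1 mismatch in each.
Cdkn1a: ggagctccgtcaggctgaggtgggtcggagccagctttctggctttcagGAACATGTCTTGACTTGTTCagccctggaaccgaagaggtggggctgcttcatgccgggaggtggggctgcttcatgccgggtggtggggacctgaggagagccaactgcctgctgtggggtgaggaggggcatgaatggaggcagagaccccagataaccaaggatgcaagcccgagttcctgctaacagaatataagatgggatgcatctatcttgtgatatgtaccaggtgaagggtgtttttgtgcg
Ccng1: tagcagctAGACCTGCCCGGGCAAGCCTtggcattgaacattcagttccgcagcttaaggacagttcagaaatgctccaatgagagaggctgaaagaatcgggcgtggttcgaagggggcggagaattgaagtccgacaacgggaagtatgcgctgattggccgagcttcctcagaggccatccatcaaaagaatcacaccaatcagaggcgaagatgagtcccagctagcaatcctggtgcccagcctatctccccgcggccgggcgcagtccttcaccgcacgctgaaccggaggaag
Such a match was held by 24 of all 33469 windows, or 0.0717%. The match is a description of these letters and says nothing of whether p53 was bound in these livers. Sequences of the array probes were not used here.

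Each value is the log2 of a probe's signal over the 75th percentile of its array. A value of 0 is therefore a signal equal to that percentile, and signals of different probes cannot be set against each other as transcript levels. All 18 probes were well above background on all 6 arrays, with 0 saturated and 0 non-uniform spots. The 75th percentile lay between 464 and 558 signal units across arrays. The 3 NTA arrays lay together on 1 slide and the vehicle arrays on 2 others, so effects of slide and of NTA cannot be told apart. Vehicle replicate 3 had a slide to itself and was scanned on another day than the other 5 arrays. The 8 hepatocyte markers, Apoa1 and Serpina1 among them, lay between the 80.0th and the 99.97th percentile of probe signal, and their summed linear level was 4235 to 4621 in NTA livers and 4620 to 5084 in vehicle livers.

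None of the 10 genes passed the test. Limma called 0 of the 18 probes at a Benjamini-Hochberg adjusted p under 0.05, against a background of 0.0341% of all 38168 probes tested (13 probes, all higher with NTA), and 0 of the 18 had an unadjusted p under 0.05, against 7.38% of all probes. The adjusted p of the 18 probes ran from 0.755 to 0.993. Their median log2 difference was −0.09, beside −0.025 over all probes, and 13 of the 18 lay below 0, as did 55.8% of all probes. For 15 of the 18 the difference was under 0.3 log2 units in size, and the 3 larger ones were 2 probes of Cdkn1a and 1 of Ccng1.

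**Figure D1:**
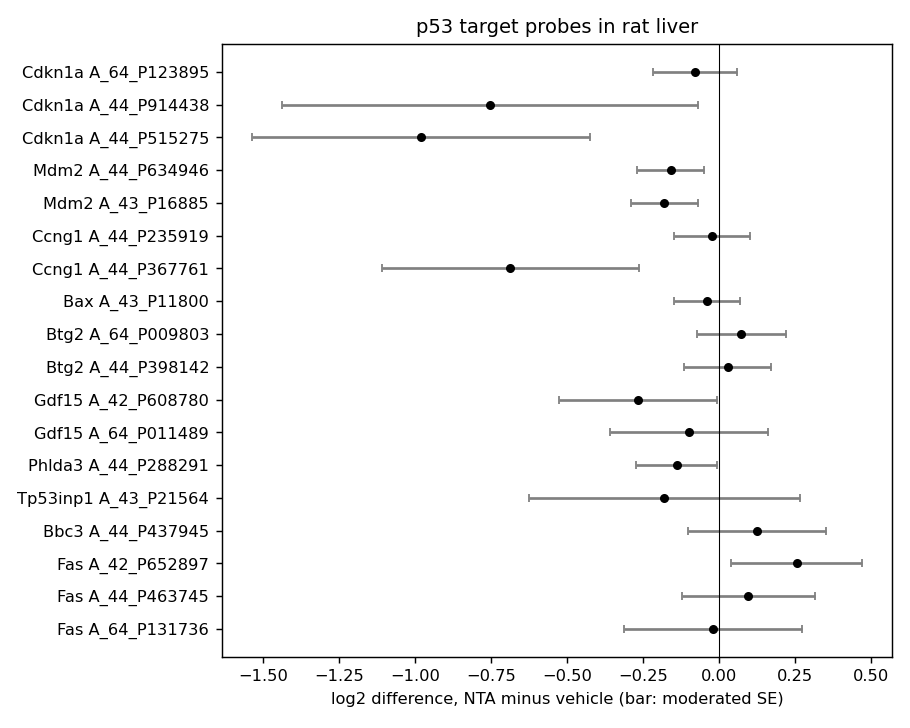
Log2 difference, NTA minus vehicle, for each of the 18 probes of the 10 genes (points), with the moderated standard error from limma (bars), n = 3 rats per group. Most probes sit close to 0, and 2 Cdkn1a probes and 1 Ccng1 probe sit at −0.75, −0.98 and −0.69 with wide bars.

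The 3 Cdkn1a probes carry the same accession (NM_080782) and gave different pictures of the same 6 livers. Probe A_64_P123895 read 5.86, 5.96 and 5.72 in NTA livers and 5.71, 5.98 and 6.09 in vehicle livers. It was nearly flat, with the highest and lowest rat 1.30-fold apart. Probe A_44_P914438 read 2.05, 2.14 and 3.98 in NTA livers, against 2.38, 4.45 and 3.59 in vehicle livers. Here NTA replicates 1 and 2 and vehicle replicate 1 were low, the other 3 rats were high, and the extremes were 5.29-fold apart. Probe A_44_P515275 read −3.74, −3.97 and −2.39 in NTA livers, against −3.36, −1.73 and −2.07 in vehicle livers. The same 3 rats were low and the same 3 high, 4.75-fold apart at the extremes, and in each probe the groups overlapped.

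**Figure D2:**
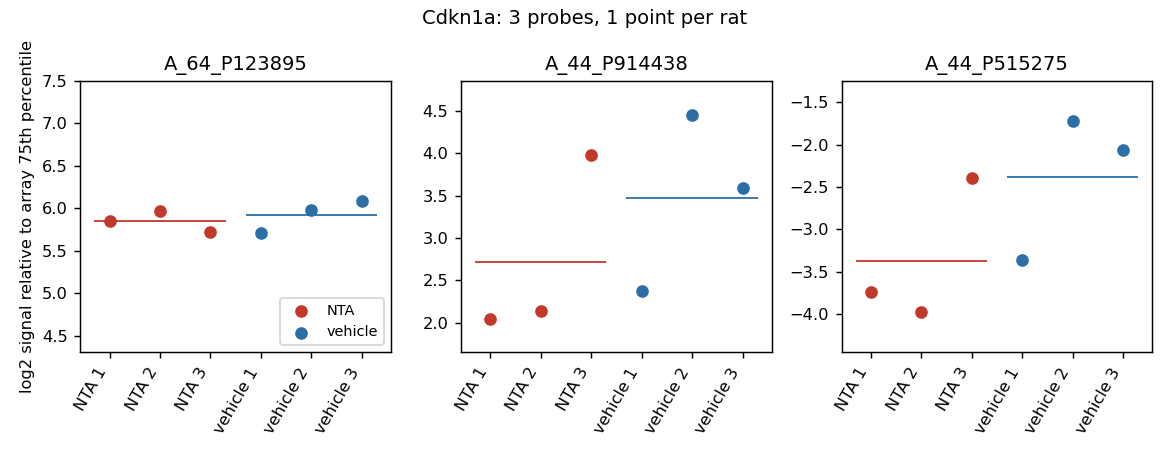
Log2 of signal over the 75th percentile of the array (vertical axes, all spanning the same number of log2 units) for the 3 Cdkn1a probes, with 1 point per rat, NTA left of vehicle, and group means as lines. A_64_P123895 is nearly flat over the 6 rats, while A_44_P914438 and A_44_P515275 are high in NTA replicate 3 and in vehicle replicates 2 and 3.

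The group means of Cdkn1a followed from which rats were high. A_64_P123895 averaged 5.85 ± 0.12 in NTA livers and 5.93 ± 0.19 in vehicle livers (SD, n = 3 each), a log2 difference of −0.08 (SE 0.14, limma Benjamini-Hochberg adjusted p = 0.922). A_44_P914438 averaged 2.72 ± 1.09 in NTA livers and 3.47 ± 1.04 in vehicle livers, a difference of −0.75 (SE 0.68, adjusted p = 0.844 in limma). A_44_P515275 averaged −3.37 ± 0.86 in NTA livers and −2.39 ± 0.86 in vehicle livers, a difference of −0.98 (SE 0.56, adjusted p = 0.755 in limma). For A_44_P914438 the spread between rats of a group was larger than the difference, and for A_44_P515275 it was close to it. The within-group SD of A_44_P914438, 1.06, was exceeded by 0.967% of all probes tested, and that of A_44_P515275, 0.859, by 1.71%, whereas 59.0% of probes had a larger one than A_64_P123895.

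These intervals set what the arrays could show for Cdkn1a. The 95% interval of the fold, NTA over vehicle, was 0.754 to 1.19 by A_64_P123895, but 0.190 to 1.85 by A_44_P914438 and 0.202 to 1.27 by A_44_P515275. Single arrays weighed heavily on the wide ones. A_44_P914438 stood at −1.38 without NTA replicate 3 and at −0.27 without vehicle replicate 2, and A_44_P515275 at −1.47 without NTA replicate 3 or vehicle replicate 1 and at −0.65 without vehicle replicate 2. With normexp background correction A_44_P515275, whose processed signal was 32.9 to 140.1 units over a local background of 33 to 62, stood at −0.42.

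The disagreement between probes was then measured within arrays. The log2 difference between A_64_P123895 and A_44_P914438 was 3.81, 3.83 and 1.74 in NTA livers and 3.33, 1.53 and 2.49 in vehicle livers, a range of 2.30 over 6 rats. That between A_64_P123895 and A_44_P515275 was 9.59, 9.94 and 8.11 in NTA livers and 9.08, 7.70 and 8.16 in vehicle livers, a range of 2.23. That between A_44_P914438 and A_44_P515275 stayed within 0.70, from 5.66 to 6.36, so these 2 probes moved together across rats and the brighter signal of A_64_P123895 did not follow them. By treatment the 3 within-array differences shifted by 0.67, 0.90 and 0.23, NTA minus vehicle. Two-sided exact permutation tests gave p = 0.5, 0.3 and 0.4 for the 3 pairs (Benjamini-Hochberg adjusted p = 0.5 for each), where 3 rats against 3 cannot go below 0.1. The probes thus differed in how they ranked the rats, and no difference in their response to NTA was detectable.

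Cdkn1a's probes spanned 0.90 log2 units in their treatment differences. Cdkn1a was singled out for its disagreeing probes, so its place among all genes is a description and no test. Of the 5543 genes with at least 2 probes past the filter, 60 (1.08%) had a span as wide, as did 18 of the 1281 with 3 such probes (1.41%), and the median span was 0.12. The span was 0.54 without NTA replicate 2, 0.60 without vehicle replicate 2 and 1.45 without NTA replicate 3. It was 0.58 with normexp background correction, whose offset shrinks the difference of the dim A_44_P515275 by construction. Ccng1 also had a wide span, 0.66, reached by 2.67% of genes with at least 2 probes, whereas Fas, Gdf15, Btg2 and Mdm2 spanned 0.28, 0.17, 0.045 and 0.021.

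**Figure D3:**
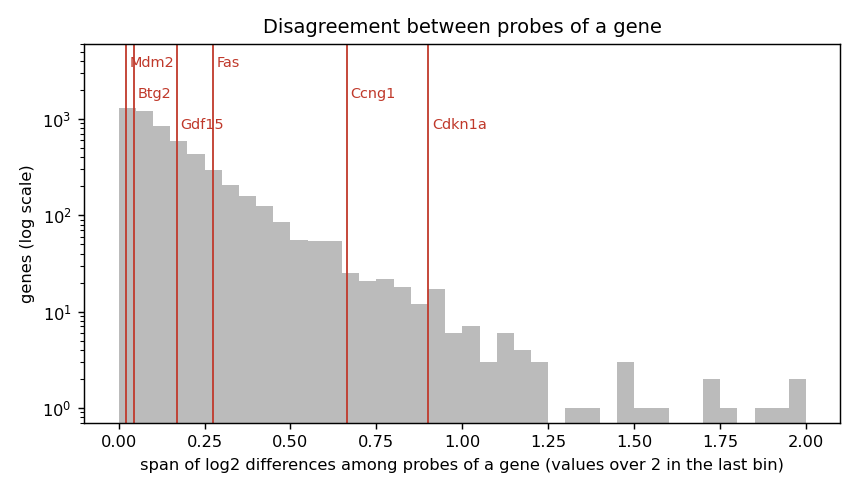
Number of genes (log scale) by the span of log2 differences, NTA minus vehicle, among their probes, over 5543 genes with 2 or more probes past the filter. Red lines mark the 6 p53 targets with several probes, with Ccng1 at 0.66 and Cdkn1a at 0.90 in the thin right tail.

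Of the other arrest genes, Ccng1, which encodes cyclin G1, also split by probe. Probe A_44_P235919 read 0.90, 0.89 and 1.02 in NTA livers and 0.75, 1.07 and 1.06 in vehicle livers, a log2 difference of −0.02 (SE 0.12). Probe A_44_P367761 read −0.57, −0.60 and −0.44 in NTA livers and −0.50, 1.19 and −0.25 in vehicle livers, a difference of −0.69 (SE 0.42, limma Benjamini-Hochberg adjusted p = 0.768). Vehicle replicate 2 alone stood apart in the second probe, and without it the difference was −0.17. Btg2, an antiproliferative gene, gave almost the same reading in both of its probes. A_64_P009803 averaged 0.55 ± 0.16 in NTA livers and 0.47 ± 0.20 in vehicle livers, a difference of 0.07, and A_44_P398142 gave 0.03. Within an array the 2 Btg2 probes differed by −0.026 to 0.041.

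Mdm2 restrains p53 by marking it for degradation, and Phlda3 is a p53 effector that inhibits the survival kinase AKT. Mdm2 probe A_44_P634946 read 0.61, 0.84 and 0.74 in NTA livers, against 0.81, 0.97 and 0.88 in vehicle livers, a log2 difference of −0.16 (SE 0.11, limma Benjamini-Hochberg adjusted p = 0.795). The second Mdm2 probe, A_43_P16885, read −1.71, −1.62 and −1.84 in NTA livers, against −1.61, −1.44 and −1.58 in vehicle livers, a difference of −0.18 (SE 0.11, adjusted p = 0.766 in limma). A_43_P16885 was the 1 of 18 probes whose groups did not overlap, by 0.012 log2 units with NTA lower, against 13.4% of all probes in either direction and 7.83% with NTA lower. Mdm2 had a within-group SD of 0.10 in both probes and a 95% interval of 0.745 to 1.08 for the fold in the first. Phlda3 read −0.23, −0.28 and −0.45 in NTA livers and 0.0014, −0.17 and −0.38 in vehicle livers, a difference of −0.14 (SE 0.13). Leaving out vehicle replicate 3 put the Phlda3 difference at −0.24, and leaving out vehicle replicate 1 put it at −0.049. That of Mdm2 A_44_P634946 was −0.099 without NTA replicate 1.

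The death genes gave small differences. Bax, which opens the outer mitochondrial membrane, read 0.43, 0.37 and 0.39 in NTA livers and 0.30, 0.56 and 0.45 in vehicle livers. Its log2 difference was −0.04 (SE 0.11), with a 95% interval of 0.812 to 1.16 for the fold. Bbc3, which encodes the BH3-only protein PUMA, read 2.27, 2.55 and 1.88 in NTA livers and 2.23, 1.75 and 2.35 in vehicle livers, a difference of 0.12 (SE 0.23). It was lowest in vehicle replicate 2 and NTA replicate 3. Fas, the death receptor, read 1.07, 1.19 and 0.96 in NTA livers and 1.13, 0.98 and 0.34 in vehicle livers by A_42_P652897, a difference of 0.25 (SE 0.21, limma Benjamini-Hochberg adjusted p = 0.832). Vehicle replicate 3 was low here, and without it the difference was 0.018. The other Fas probes, A_44_P463745 and A_64_P131736, gave 0.10 and −0.02.

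Tp53inp1, a stress-induced protein that promotes autophagy and cell death, varied between rats of the same group. Its probe read 0.13, −0.26 and 0.61 in NTA livers and −0.63, 1.03 and 0.63 in vehicle livers, a log2 difference of −0.18 (SE 0.45, limma Benjamini-Hochberg adjusted p = 0.952). NTA replicate 3 and vehicle replicates 2 and 3 were again the high rats, and a larger within-group SD than its 0.686 was found for 3.29% of all probes. Gdf15, a secreted stress cytokine, followed other rats. Probe A_42_P608780 read −2.12, −1.56 and −2.55 in NTA livers and −1.99, −1.87 and −1.57 in vehicle livers, a difference of −0.27 (SE 0.26), and A_64_P011489 gave −0.10 (SE 0.26). The A_42_P608780 difference was −0.53 without NTA replicate 2 and −0.03 without NTA replicate 3. NTA replicate 2 was the highest and NTA replicate 3 the lowest rat in both Gdf15 probes.

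Across the 18 probes, 5 had NTA replicate 3 and vehicle replicates 2 and 3 as their 3 highest arrays, which was true of 5.56% of all probes. They were A_44_P914438 and A_44_P515275 of Cdkn1a, both Ccng1 probes and the probe of Tp53inp1. Probes of a gene map to the same symbol and all share the 6 RNA samples, so these are not 5 separate observations. The pattern was also picked after the values were seen. The lowest of these 3 arrays lay above the next one by 1.21 and 0.97 log2 units in the Cdkn1a probes and by 0.49 in Tp53inp1, but by 0.12 and 0.059 in Ccng1. Btg2, Bbc3, Fas, Gdf15, Mdm2, Phlda3 and Bax did not show this order.

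**Figure D4:**
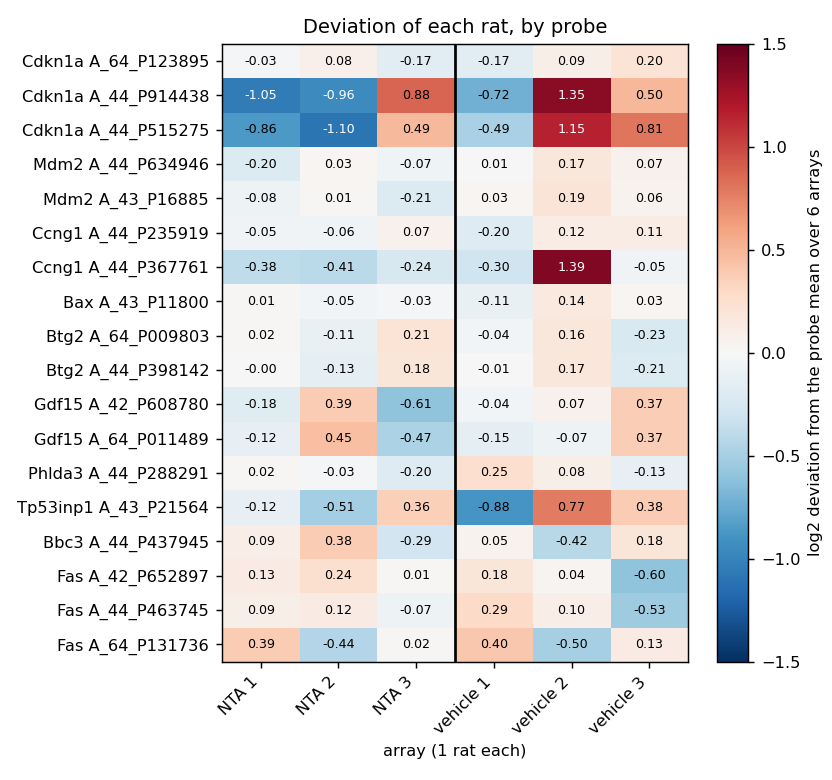
Log2 deviation of each rat (columns, NTA left of vehicle) from the probe's mean over the 6 arrays (colour and printed value), for the 18 probes (rows). Cdkn1a probes A_44_P914438 and A_44_P515275 and the Tp53inp1 probe are high in NTA replicate 3 and vehicle replicates 2 and 3, and Ccng1 A_44_P367761 is high in vehicle replicate 2.

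The named genes whose 6 values followed each Cdkn1a probe most closely differed between probes. They were sought among 2786 named genes with an SD of at least 0.3 over the arrays, by Pearson's r over 6 arrays, as a description. For A_64_P123895 they were Endog, Klhl23 and Ak4, with r of 0.97, 0.96 and 0.95. For A_44_P914438 they were Zfp189, Pim3 and Pkib, with r of 0.99, 0.98 and 0.97. For A_44_P515275 they were Vcpip1, Cited4 and Oas1e, with r of 0.99, 0.98 and 0.97. The arrays fall into a low and a high set in the last 2 probes, and any gene with the same step has a high r with them. These 2 probes had an r of 0.96 with each other, so the unlike names do not set them apart. Pim3, a serine/threonine kinase, read 3.60, 3.79 and 4.65 in NTA livers and 3.70, 4.99 and 4.30 in vehicle livers, which puts the same 3 rats high.

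Genes upstream of and beside these targets gave no calls either. Of 18 p53 regulators 14 were measured, with 0 called (0.0297% of all features at 1 probe per gene were called), 0 at an unadjusted p under 0.05 and a median log2 difference of −0.03, beside −0.027 over all 30353 features. The checkpoint kinase Chek1 stood at 0.20 (SE 0.11) and the p53 phosphatase Ppm1d at 0.21 (SE 0.12), where another Ppm1d probe gave 0.008. Dimmer probes of Tp63 and Usp7 gave −1.15 and −0.23 (limma unadjusted p = 0.039 and 0.041, adjusted p = 0.650 and 0.658). Their brightest probes gave −0.30 and −0.19. Of 36 other p53 targets 27 were measured, with 0 called and a median of 0.06. The ribonucleotide reductase subunit Rrm2b stood at 0.87 (SE 0.33, limma Benjamini-Hochberg adjusted p = 0.647), and Steap3, a ferrireductase, at −0.39 (SE 0.17). These 2 genes were named because they had the smallest p of the list at the brightest probe of each gene. The groups of Rrm2b did not overlap, as for 13.4% of all probes. Its probe was dim, at the 9.4th percentile of probe signal, and its closest values were −4.04 in NTA replicate 2 and −4.13 in vehicle replicate 2. At the brightest probe of each gene, 1 gene of this list, Rrm2b, had an unadjusted p under 0.05, or 3.70%, against 7.69% of all features. A dimmer probe of Slc19a2 gave −0.47 (limma unadjusted p = 0.0062, adjusted p = 0.526), where its brightest probe gave 0.02 and another −0.13.

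Among the cyclins, kinases and inhibitors around p21, 0 of 17 were called, 3 had an unadjusted p under 0.05 (2 higher, 1 lower; 17.6% of the list, against 7.69% of all features), and the median was 0.008. Cyclin A2 (Ccna2) averaged −1.80 ± 0.41 in NTA livers and −2.66 ± 0.26 in vehicle livers, a log2 difference of 0.86 (SE 0.24, limma Benjamini-Hochberg adjusted p = 0.539). The other probes of Ccna2 gave 0.77 and 0.81. Cdkn1c, which encodes the related inhibitor p57, averaged −0.92 ± 0.19 in NTA livers and −0.45 ± 0.19 in vehicle livers, a difference of −0.47 (SE 0.15, adjusted p = 0.574 in limma), and its 4 other probes gave −0.48 to −0.32. Both genes were named for their small p, and their groups did not overlap, as for 13.4% of all probes. In the BCL2 and death receptor list, beside Bax, Bbc3 and Fas, 0 of 17 measured genes were called and the median was 0.05. Bcl2, which blocks Bax, stood at 0.86 (SE 0.21, limma Benjamini-Hochberg adjusted p = 0.526), and Tnfrsf1a, a tumour necrosis factor receptor, at 0.19 (SE 0.09).

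Of 13 mitotic genes that p21 represses through the DREAM complex, 10 were measured, each well above background on all 6 arrays. Their log2 differences were all above 0, as were 43.9% of all features, at a median of 0.60 (0.032 to 1.12). Of the 10, 4 had an unadjusted p under 0.05, against 7.69% of all features, but 0 were called. The genes share the 6 RNA samples, so they are not 10 separate observations. Their summed linear level overlapped between groups, at 4.14 to 6.26 in NTA livers and 3.65 to 4.43 in vehicle livers. Cdk1, the mitotic kinase, averaged −0.10 ± 0.38 in NTA livers and −1.22 ± 0.48 in vehicle livers, a log2 difference of 1.12 (SE 0.29, limma Benjamini-Hochberg adjusted p = 0.527). The kinesin Kif23 averaged −2.96 ± 0.24 in NTA livers and −3.64 ± 0.15 in vehicle livers, a difference of 0.69 (SE 0.16, adjusted p = 0.492 in limma).

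Markers of other cells in whole liver were measured beside these genes, and limma called 0 of them. Of all features at 1 probe per gene, 0.0297% were called and 43.9% lay above 0. The 6 measured of 8 endothelial markers were all above 0 in log2 difference, with Tie1 at 0.63 and Lyve1 at 0.54. They summed to a linear level of 78.4 to 87.2 in NTA livers and 60.8 to 73.2 in vehicle livers. A linear sum weighs the brightest probe most, here Kdr, whose own groups overlapped. The 6 measured of 7 erythroid markers were above 0, with Rhd at 1.00 and Alas2 at 1.17. They summed to 710 to 1120 in NTA livers and 578 to 640 in vehicle livers, a level set mostly by the bright Hba-a1 and Hbb probes. The 4 measured of 7 B cell and plasma cell markers were above 0, with Cd79b at 0.74 and Pou2af1 at 0.75. Another Pou2af1 probe gave −0.29. Mzb1, 1 of the 4, was well above background on only 4 of 6 arrays, and was lowest in vehicle replicates 1 and 2 (−5.52 and −5.00). It passed the filter through the NTA group, which favoured its sign. The 4 markers summed to 0.830 to 1.42 in NTA livers and 0.526 to 0.804 in vehicle livers. In these 3 lists the sums did not overlap between groups, and the same held for neutrophils. Among single probes the groups did not overlap for 13.4% of all probes, and no such share was worked out for sums. Of 5 neutrophil markers only S100a9 and S100a8 were kept, at 1.37 and 1.21, and the groups of S100a8 overlapped. Elane and Csf3r had probes that were too dim to pass the filter. The list summed to 1.96 to 4.59 in NTA livers and 0.727 to 1.92 in vehicle livers. All 8 Kupffer cell markers were above 0, with Marco at 1.27 and Cd163 at 0.48, but their sums overlapped at 118 to 235 in NTA livers and 75.6 to 172 in vehicle livers. Other lists were mixed. Of 8 stellate cell and fibroblast markers 2 were above 0 and 6 below (median −0.13), with Lrat at 0.41 and Acta2 at −0.17, and sums of 28.2 to 46.8 in NTA livers and 33.6 to 37.5 in vehicle livers. Of 7 measured T and NK cell markers 6 were above 0 (median 0.09), with Nkg7 at 0.29 and Cd8a at −0.36, and sums of 2.92 to 4.88 in NTA livers and 2.36 to 4.31 in vehicle livers. Of 5 measured biliary markers 4 were above 0 (median 0.13), with Krt7 at −0.25 and Epcam at 0.26, and sums of 1.37 to 1.74 in NTA livers and 1.14 to 1.90 in vehicle livers. The part of these cells in the values of the p53 targets and of the mitotic genes was not tested.

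**Figure D5:**
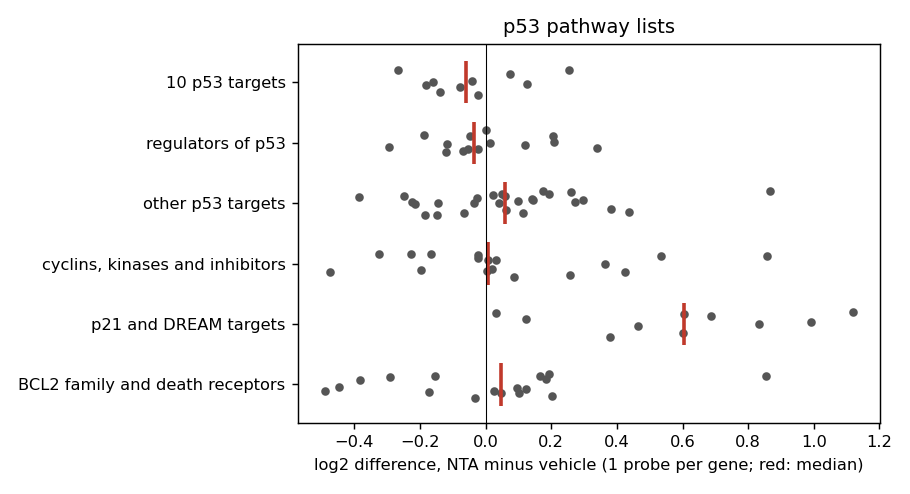
Log2 difference, NTA minus vehicle, of each measured gene (points, 1 probe per gene) in the 10 p53 targets and 5 lists of the p53 pathway, with list medians in red. The 10 p53 targets centre on −0.06, and the mitotic genes under p21 and DREAM all lie above 0, with a median of 0.60.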

How the data were processed

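Liver RNA of 6 rats was measured on one-colour Agilent arrays of design 035170 (build rn4, per the file headers). The deposited scanner files give a background-subtracted processed intensity. Feature Extraction made it, in version 10.7.1.1 per the file headers (the submitters' processing notes name 10.7). Values in the series table that the authors deposited are a linear ratio, since 100.0% of them matched the processed signal divided by the array's 75th percentile within 0.0001 plus 0.2%. The medians of its columns stood at 0.096, 0.1 and 0.0969 for NTA arrays, against 0.098, 0.0977 and 0.0987 for vehicle arrays. This settles its scale and direction and shows that genes were not centred.

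Values were log2 of the processed signal minus log2 of the 75th percentile over 61657 non-control probes, 1 spot each. Unversioned accessions gave 27460 probes 1 RefSeq symbol (GRCr8) and 34197 none. A probe was kept if well above background on every array of at least 1 group (38168 probes). The contrast NTA minus vehicle was fitted with limma 3.58.1 in R 4.3.3 (lmFit, then eBayes). Its two-sided p-values were adjusted by Benjamini and Hochberg's method over the kept probes, with a threshold of 0.05 (4 residual and 2.57 prior degrees of freedom). The intervals are 95% intervals from the moderated test, not adjusted. The fit was tested on simulated data. Pairs of Cdkn1a probes were compared with exact permutation tests (scipy 1.17.1).

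Every member probe was named. Of each other list, members past the threshold were named (at most 4), or else the 2 with the smallest p, using the brightest probe of a gene. Members and lists were chosen with earlier results of these data known. Separate animals are given by the treatment protocol. Precision is limited by having 3 arrays in each group. The scanner files used here hold no mean signal, so normexp (offset 50) used the median signal in place of the planned mean. Alternatives were background correction, normalization, filters, blocks, leave-outs and the series table. The values of 1 gene of the pathway lists are not reported here.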

Additional observations from a re-analysis of the deposited data

How the results depend on the processing

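No member probe passed the threshold under any alternative that was run, with limma Benjamini-Hochberg adjusted p from 0.457 upward over 182 probe values under the settings that kept all arrays and from 0.554 upward over 108 values with 1 array left out. No gene of the 5 pathway lists passed either. The changed filters, limma's trend and robust options, the replicate block and the brightest-probe fit use the same values. Their differences equal those of the main fit, so their signs were fixed in advance. The same holds for the mean of probes in genes with 1 probe. The series table holds the same values within a small tolerance, and slide as a random block hardly moved the differences. Of the 182, 175 kept their sign, a count that these settings fill in large part. The 7 that did not came with scan day as a block, which is the same as leaving out vehicle replicate 3: Cdkn1a A_64_P123895 was then at 0.0011, Ccng1 A_44_P235919 at 0.028, Btg2 A_64_P009803 at −0.024 and A_44_P398142 at −0.069, Gdf15 A_64_P011489 at 0.061, and Fas A_44_P463745 at −0.15 and A_64_P131736 at 0.037. With 1 array left out, the log2 difference ran from −0.19 to 0.0011 for Cdkn1a A_64_P123895, from −0.13 to 0.030 for Ccng1 A_44_P235919 and from −0.11 to 0.021 for Bax. It ran from −0.024 to 0.17 for Btg2 A_64_P009803, from −0.069 to 0.12 for A_44_P398142 and from −0.35 to 0.11 for Gdf15 A_64_P011489. It ran from −0.53 to −0.03 for Gdf15 A_42_P608780, from −0.24 to −0.049 for Phlda3, from −0.21 to −0.099 for Mdm2 A_44_P634946 and from −0.23 to −0.12 for A_43_P16885. It ran from −0.67 to 0.16 for Tp53inp1, from −0.053 to 0.30 for Bbc3, from −0.15 to 0.26 for Fas A_44_P463745 and from −0.28 to 0.19 for A_64_P131736. The Cdkn1a span ran from 0.54 to 1.45. Over all probes limma called 6 without NTA replicate 1, 7 without NTA replicate 2 and up to 11 without another array, against 13. With the replicate block it called 0 (2826 at an unadjusted p under 0.05). Same-numbered arrays correlated in their deviations at 0.158, −0.0039 and −0.0852 across probes, and differently numbered ones at −0.161 to 0.152. With 3 arrays in each group these values cannot settle whether the numbers pair the rats. In this balanced layout the block leaves every difference as it was by construction (the Cdkn1a span is 0.90) and changes only the errors. The alternatives that match probes by a gene name column were not run, because the scanner files used here hold none.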
